A study of Mus musculus with 15 samples.

Results

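mt-Rnr1 and mt-Rnr2, the RNAs of the small and the large subunit of the mitochondrial ribosome, were followed across 15 RNA-seq libraries of circulating extracellular vesicles (EVs) from mice. They are 2 of the 43472 gene symbols counted in each library and 2 of the 37 genes encoded by the mitochondrial genome, and they were found by their symbols in the count tables. Both were chosen by measured values of these libraries, namely their share of the reads, which was lower in dystrophic- or hypertrophic-derived than in wild-type-derived EVs. Their levels and their ratio against wild type are therefore given below as a description, without a p-value, and tests are restricted to hypertrophic against dystrophic, to other genes and to relations among the dystrophic and hypertrophic libraries.

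EVs came from wild-type (WT) C57BL/6 mice (n = 3 libraries), from dystrophic Sgcb-null mice (n = 6), which lack beta-sarcoglycan of the dystrophin-associated complex, and from hypertrophic mice (n = 6). None received a treatment. The sample labels give the hypertrophic mice as MAGIC-F1, while the methods of the study give Mstn-null for them, so the allele behind this condition is not settled here and only the condition was used. Animals were 3 to 6 months old and each library pooled the EVs of 2 to 3 mice, so p-values measure the spread between pooled samples. The methods list fewer Sgcb-null mice for plasma than 6 separate pools of this size need, and the same holds for Mstn-null or MAGIC-F1 mice taken alone. Whether libraries share mice is therefore not settled, and the tests take them as separate. The RNA was amplified before library preparation. Labels and methods also differ on plasma or serum and on the library kit. The molecule is labelled polyA RNA in the sample records and total RNA in the design text. In addition, 6 libraries, the last 3 dystrophic and the first 3 hypertrophic ones, have a number in their title that the counts of the other condition carry, and results are also given with them exchanged or left out. Replicate numbers only name libraries.

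Mitochondria transcribe both strands of their small circular genome as long precursors. The ribosomal RNAs lie at the start of the heavy-strand transcript, with a tRNA before, between and after them, and are freed when the tRNAs are cut out, as the tRNA punctuation model describes. They join nuclear-encoded proteins in the ribosome that translates the mitochondrial mRNAs, all of which code for subunits of the respiratory chain and ATP synthase. Short adenine tails are added to the 3′ ends of mitochondrial transcripts, and in blood, platelets and young red blood cells carry mitochondria whereas mature mammalian red cells do not.

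In the mm10 genome, mt-Rnr1 (ENSMUSG00000064337.1) spans chrM:70-1024 and mt-Rnr2 (ENSMUSG00000064339.1) spans chrM:1094-2675, both on the plus strand and both as single-exon rRNA genes of 955 and 1582 bases. mt-Tf (tRNA-Phe, chrM:1-68) precedes mt-Rnr1, mt-Tv (tRNA-Val, chrM:1025-1093) fills the gap between the rRNAs, mt-Tl1 (tRNA-Leu, chrM:2676-2750) follows mt-Rnr2, and mt-Nd1 (chrM:2751-3707) comes next. The transcripts were read from GENCODE M21, on GRCm38, which is the same assembly as mm10. Adenine makes up 37.8% of mt-Rnr1 and 38.2% of mt-Rnr2, which bears on a library from RNA labelled polyA. mt-Rnr1 holds no run of 6 or more A, and its longest runs, of 5 A, occur at 2 places. mt-Rnr2 holds 4 runs of at least 6 A, the longest of 7. Shown first are the last 60 bases of each RNA (chrM:965-1024 and chrM:2616-2675, plus strand), the end that would carry a tail. Capitals mark the GGAA of the terminal stem-loop of mt-Rnr1, whose adenines the methyltransferase Tfb1m modifies.
mt-Rnr1 3′ end: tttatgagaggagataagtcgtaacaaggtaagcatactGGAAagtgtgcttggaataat
mt-Rnr2 3′ end: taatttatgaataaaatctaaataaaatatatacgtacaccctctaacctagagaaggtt
The longest A runs follow with 20 bases on each side and the run in capitals, at chrM:685-729 and chrM:720-764 in mt-Rnr1 and at chrM:1468-1514 in mt-Rnr2. How far such internal runs primed the reads was not tested.
mt-Rnr1 first longest A run: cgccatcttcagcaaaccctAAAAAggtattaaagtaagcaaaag
mt-Rnr1 second longest A run: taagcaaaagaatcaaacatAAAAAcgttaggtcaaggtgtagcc
mt-Rnr2 longest A run: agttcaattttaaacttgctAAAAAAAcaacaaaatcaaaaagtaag

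Depth differed strongly between libraries. Reads counted on genes ran from 27227 to 32563362, and a count of 0 allowed between 0.0921 and 110 CPM (counts on a gene per 1000000 counts on all genes of the library). mt-Rnr1 nonetheless rested on 1874 to 739605 reads and mt-Rnr2 on 3514 to 1393047 reads per library. The tetraspanin EV markers were present, with Cd9 read in 15 libraries, Cd81 in 11 and Cd63 in 10. Blood cell RNA was present as well, since all 6 erythroid and all 5 platelet markers had reads in each condition. Of the 4 skeletal muscle markers, Acta1 was read in 8 libraries, Tnnt3 in 3, Ckm in 2 and Myh4 in 0. No pair of libraries held identical counts.

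mt-Rnr2 was the gene with the most reads in 13 of the 15 libraries and stood at rank 2 in the others, dystrophic replicate 2, led by Hbb-bs, a beta-globin gene, and hypertrophic replicate 1, led by Tmsb4x, a thymosin gene. mt-Rnr1 held rank 2 in 6 libraries and never fell below rank 8. Together they took between 4.997% and 20.7% of the reads on genes in a library. Per kilobase of transcript, mt-Rnr2 stood at 52119 ± 24056 RPKM and mt-Rnr1 at 41912 ± 17573 (SD, n = 15), so most of the gap in read number between them went with their length.

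In WT-derived EVs, the mt-Rnr1 level was 68829 CPM in replicate 1, 69635 in replicate 2 and 55386 in replicate 3. The dystrophic-derived libraries had 38780, 18910, 43377, 54504, 32683 and 22713 CPM in replicates 1 to 6. The hypertrophic-derived libraries had 16674, 47825, 35442, 21800, 37255 and 36574 CPM in the same order. All WT-derived libraries lay above the other 12, but the gap was narrow, between WT replicate 3 and dystrophic replicate 4. Means were 64617 ± 8004 in WT (SD, n = 3), 35161 ± 13266 in dystrophic (n = 6) and 32595 ± 11381 in hypertrophic EVs (n = 6), so the level was 1.84-fold lower in dystrophic- and 1.98-fold lower in hypertrophic- than in WT-derived EVs.

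The mt-Rnr2 level was 129063, 137237 and 134391 CPM in WT replicates 1 to 3. Dystrophic replicates 1 to 6 had 66037, 35386, 75992, 126248, 58578 and 42780 CPM. Hypertrophic replicates 1 to 6 had 33295, 114559, 73145, 38704, 98862 and 72504 CPM. Again the WT-derived libraries lay above the others, and again dystrophic replicate 4 came closest. The means were 133564 ± 4149 in WT (SD, n = 3), 67504 ± 32396 in dystrophic (n = 6) and 71845 ± 32065 in hypertrophic EVs (n = 6). These were 1.98-fold lower in dystrophic and 1.86-fold lower in hypertrophic EVs than in WT.

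**Figure D1:**
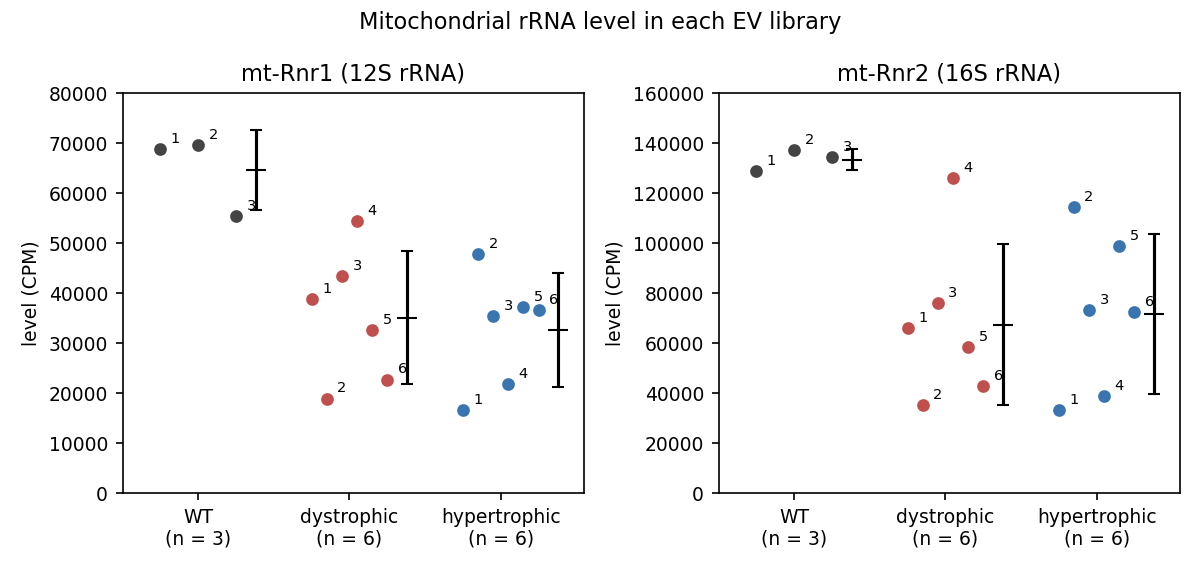
Level of mt-Rnr1 (left) and mt-Rnr2 (right) in CPM for WT, dystrophic and hypertrophic EV libraries, with a numbered point per replicate and the mean ± SD beside each group. The 3 WT points lie above all 12 others for both RNAs, dystrophic replicate 4 lies close under them, and the dystrophic and hypertrophic points largely overlap.

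Among the 6887 genes tested, 0.0436% had a lower CPM in all 12 dystrophic and hypertrophic libraries than in every WT library. These were 3 genes, both rRNAs and 1700010I02Rik, a gene with at most 36.7 CPM in any library, named after its values were seen. Against dystrophic EVs alone 0.276% of genes lay below WT in this way, and against hypertrophic EVs alone also 0.276%. The comparison with WT is the one that picked the rRNAs, so nothing is read from these shares.

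Scaling changed the separation of dystrophic replicate 4 but not the order of the means. That library had the highest hemoglobin level, 152654 CPM, against 22288 to 84218 in WT. On a CPM scale over the reads outside the hemoglobin genes, its mt-Rnr2 level was 148992, above the highest WT library at 143180, and its mt-Rnr1 level was 64323, within the WT range of 59008 to 75158. It was the 1 library of 12 to reach the lowest WT value on this scale, for either RNA. Group means outside hemoglobin were still lower than WT by 1.76-fold for mt-Rnr1 and 1.89-fold for mt-Rnr2 in dystrophic EVs, and by 1.99-fold and 1.86-fold in hypertrophic EVs. Summed platelet markers, all 5 of them read in each condition, ran from 18276 to 28428 CPM in WT, from 9352 to 19886 in dystrophic and from 14295 to 33538 in hypertrophic EVs. Summed leukocyte markers, with Cd3e at 0 in WT and hypertrophic EVs, had means of 1155, 561 and 559 CPM in WT, dystrophic and hypertrophic EVs and overlapped, from 254 to 1947, from 204 to 1021 and from 17.7 to 1698. Summed muscle markers had means of 130, 37.9 and 37.7 CPM in the same order, with 1, 1 and 4 libraries at 0 and at most 203 CPM in any library. Leukocyte and muscle means were thus lower than WT in both conditions. The WT muscle sum was Acta1 alone, and the highest leukocyte sum was that of WT replicate 1, the library with 27227 reads. Hemoglobin means were 55964, 88828 and 52456 CPM in WT, dystrophic and hypertrophic EVs, and platelet means 24185, 13983 and 25030, so neither was clearly lower in both. The part of hemoglobin, platelet, leukocyte or muscle RNA in these differences was not tested. All values are shares of a library, so fewer vesicles of a kind and less rRNA per vesicle cannot be told apart.

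In the edgeR quasi-likelihood fit across all genes, which rescales libraries by TMM, the log2 change in dystrophic against WT EVs was -0.91 (SE 0.22) for mt-Rnr1 and -1.05 (SE 0.15) for mt-Rnr2. The log2 change in hypertrophic against WT EVs was -1.21 (SE 0.22) for mt-Rnr1 and -1.16 (SE 0.15) for mt-Rnr2. The comparison with WT picked the rRNAs, so these fitted SEs are a description and not a test. They are also narrow beside the spread between libraries, as the SD of mt-Rnr2 log2 CPM was 0.65 in dystrophic and 0.72 in hypertrophic EVs. The median gene of the fit stood at 1.38 in dystrophic and 0.66 in hypertrophic against WT, and at 1.55 and 1.002 without TMM. The rRNAs lay well below these medians on either scale. However, 169 genes had a read in every library, and WT replicate 1 had reads on 797 genes. The median gene was thus sparsely read and is not a like reference for the rRNAs. Of all genes, 0.0145% passed an adjusted p of 0.05 in dystrophic and 0.029% in hypertrophic against WT. These were the rRNAs themselves, mt-Rnr2 in dystrophic and both in hypertrophic EVs, so the shares are not independent of their choice and nothing is read from them. The 3 WT libraries all have titles from the lower of the 2 series of library numbers. Within that series by title, dystrophic replicates 1 to 3 reached at most 75992 and hypertrophic replicates 1 to 3 at most 114559 CPM of mt-Rnr2. Going by the numbers that the counts carry, all WT and dystrophic libraries belong to the lower series and all hypertrophic ones to the higher. Series and hypertrophic condition could then not be told apart, so values within a title series need not stay within a series of counts.

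Between hypertrophic and dystrophic EVs, a comparison that did not enter the choice of the RNAs, neither level passed the test, and the groups overlapped over most of their range. In edgeR the log2 change of hypertrophic against dystrophic was -0.30 for mt-Rnr1 (SE 0.19, adjusted p = 0.817) and -0.11 for mt-Rnr2 (SE 0.13, adjusted p = 0.9998), where the median gene stood at -0.52 and 0.0145% of genes were called. The direction for mt-Rnr2 turned to 0.09 without TMM and to 0.07 in DESeq2, where the median gene stood at -0.36 and -0.35, so no direction is given. On log2 CPM the difference was -0.10 for mt-Rnr1, with a 95% interval from -0.86 to 0.64 (exact two-sided permutation test, p = 0.745), and 0.08 for mt-Rnr2, with an interval from -0.81 to 0.96 (exact permutation p = 0.857). These intervals admit changes of either sign. The spread between libraries gave SEs of 0.33 and 0.39 for these log2 CPM differences, larger than the fitted SEs above. The gene called in this comparison was Hbb-bs, lower in hypertrophic EVs by a log2 change of -1.01 (SE 0.20, edgeR adjusted p = 0.00306). The call was lost, leaving 0 genes, with only these conditions in the fit, with the crossed libraries exchanged or left out, with no filter beyond 1 read, and without any of dystrophic replicates 1, 2, 4 and 5 or hypertrophic replicates 1 and 6. Its level ran from 15932 to 46535 CPM with a median of 25937 in hypertrophic and from 31371 to 75123 with a median of 39002 in dystrophic EVs.

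The ratio of mt-Rnr2 to mt-Rnr1 reads varied far less than either level. It was 1.88, 1.97 and 2.43 in WT replicates 1 to 3. Dystrophic replicates 1 to 6 had 1.70, 1.87, 1.75, 2.32, 1.79 and 1.88. Hypertrophic replicates 1 to 6 had 1.997, 2.40, 2.06, 1.78, 2.65 and 1.98. All dystrophic libraries but replicate 4 kept close together, with that one above them, whereas the hypertrophic values were spread over the range of all 3 conditions. Corrected for length, mt-Rnr2 exceeded mt-Rnr1 in all 15 libraries, from 1.03-fold to 1.60-fold. Counting error was small beside the spread between libraries. The 95% Wilson interval reached from 1.77 to 1.98 in the shallowest library, WT replicate 1, and from 2.60 to 2.71 in hypertrophic replicate 5, which had the highest ratio. Such intervals cover counting error only, because amplified copies are not independent molecules.

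Mean ratios were 2.09 ± 0.295 in WT (SD, n = 3), 1.89 ± 0.222 in dystrophic (n = 6) and 2.14 ± 0.320 in hypertrophic EVs (n = 6). Hypertrophic exceeded dystrophic EVs by 0.18 on the log2 scale, with a 95% interval from -0.07 to 0.41, which did not pass the exact two-sided permutation test (p = 0.132, adjusted p = 0.132 over 2 measures). Without dystrophic replicate 4 the difference was 0.24 with an exact permutation p of 0.0216, so that this library alone decided the side of the threshold. With the crossed libraries exchanged it was 0.07 (exact permutation p = 0.584). Within the lower title series it was 0.27 (exact permutation p = 0.1, the smallest that 3 against 3 allows) and within the higher series 0.09 (exact permutation p = 0.7).

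**Figure D2:**
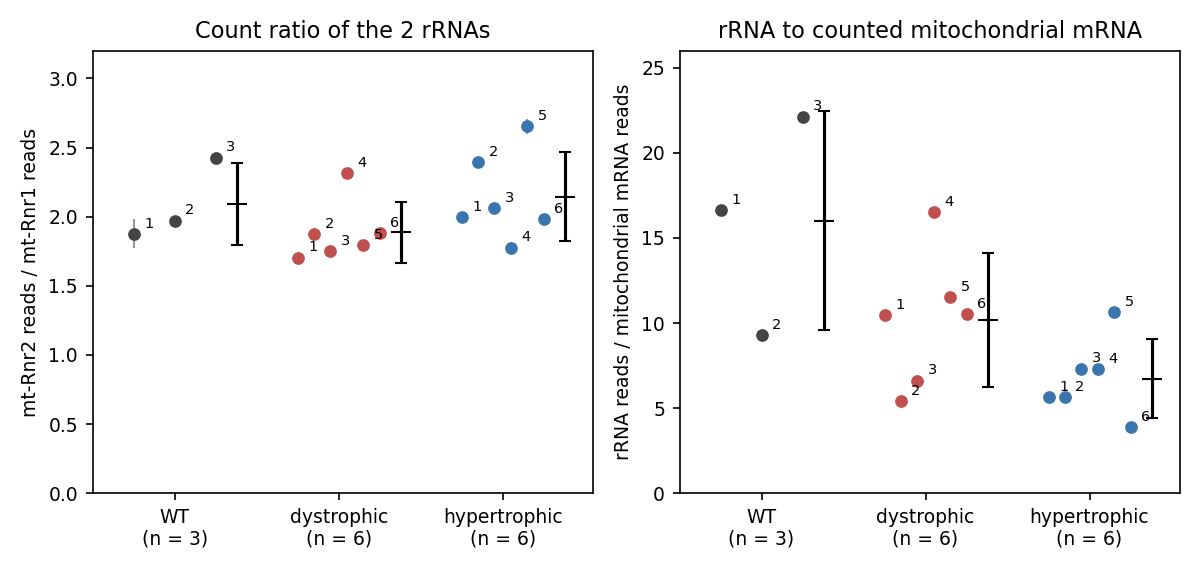
Reads of mt-Rnr2 per read of mt-Rnr1 (left, grey bars are 95% Wilson intervals) and reads of both rRNAs per mitochondrial mRNA read (right) for each numbered library, with the mean ± SD beside each group. The left ratios stay between 1.70 and 2.65 in all 3 conditions, and the right ratios run from 3.88 in hypertrophic replicate 6 to 22.1 in WT replicate 3.

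Reads of the other mitochondrial genes were counted unevenly. The 13 mRNAs had 5 members with reads in every library, mt-Nd1, mt-Nd4, mt-Nd5, mt-Cytb and mt-Co1, and 2 members, mt-Nd4l and mt-Nd6, at 0 in all. Per length the highest was mt-Cytb (cytochrome b of complex III), at 3440 ± 1717 RPKM (SD, n = 15), well under either rRNA, followed by mt-Co1 (catalytic subunit of cytochrome c oxidase) at 3116 ± 2208 RPKM. mt-Nd1, the complex I gene that follows mt-Rnr2 on the genome, stood at 1647 ± 1148 RPKM. mt-Co2, a subunit of the same oxidase as mt-Co1, had 1 read in 1 library. Of the 22 tRNAs, 21 were at 0 in every library, the neighbours mt-Tf, mt-Tv and mt-Tl1 among them, and mt-Tw had 16 reads in 1 library.

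These genes also differed in how far their sequence occurs elsewhere. Each transcript was cut into all windows of 50 bases, the length of the reads, and each window was looked for on both strands of the transcripts of other GENCODE M21 genes outside the mitochondrial genome. Only exact matches in annotated transcripts were looked for, so unannotated or nearly identical nuclear copies would be missed. No window of mt-Rnr1 (0 of 906) and 16 of the 1533 windows of mt-Rnr2 (1.04%) were found elsewhere. All windows of mt-Co2, 99.9% of those of mt-Co3, 99.5% of mt-Atp6, 98.8% of mt-Nd4l and 98.0% of mt-Nd3 were, and these 5 mRNAs had reads in at most 5 libraries. mt-Co1 and mt-Nd4 lay between, at 51.1% and 62.2%, and mt-Nd6 was at 0 reads with 0% shared. Alignments listed as not unique numbered 0.727 to 1.71 per read on genes in a library. How far reads of the shared mRNAs went into that class was not tested, so levels per length between the rRNAs and these mRNAs are not like for like. The shared windows of mt-Rnr2 fall in 1 stretch of 65 bases (chrM:2102-2166, plus strand), printed here because reads from it could be set aside or counted on Gm20594, a gene annotated as protein-coding, which had 3297 reads over 5 libraries.
mt-Rnr2 stretch shared with Gm20594: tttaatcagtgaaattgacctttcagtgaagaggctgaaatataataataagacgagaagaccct

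**Figure D3:**
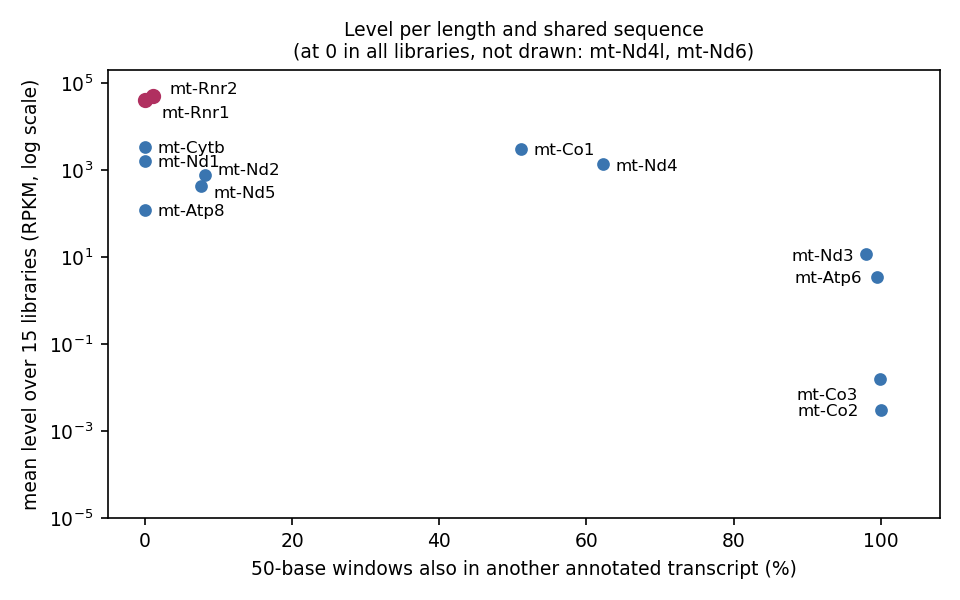
Mean level over 15 libraries (RPKM, log axis) against the percent of 50-base windows also found in another annotated transcript, a point for each rRNA and each mitochondrial mRNA with reads. Both rRNAs sit at the top left, and the 4 drawn mRNAs with at least 98.0% of windows shared sit at the bottom right.

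The rRNAs made up 90.3% to 95.7% of the reads counted on mitochondrial genes in WT, 84.4% to 94.3% in dystrophic and 79.5% to 91.4% in hypertrophic EVs. The means were 93.4% ± 2.81 (SD, n = 3), 90.0% ± 3.66 (n = 6) and 86.1% ± 4.03 (n = 6). Reads of the mRNAs with shared windows may be missing from this total, which would set the share and the rRNA to mRNA ratio too high. How far was not tested. Hypertrophic EVs were 3.91 percentage points lower than dystrophic EVs (Hyp minus Dys -3.91, 95% interval from -9.06 to 0.80), which did not pass the exact two-sided permutation test (p = 0.123, adjusted p = 0.132). The direction turned to 2.67 points higher with the crossed libraries exchanged (exact permutation p = 0.303), and with only the 9 matching libraries the difference was -1.24 points (exact permutation p = 0.9). Within the lower title series the difference was -1.55 points (exact permutation p = 0.7) and within the higher series -6.27 points (exact permutation p = 0.2), where 0.1 is the smallest p possible. As a ratio, 9.29 to 22.1 rRNA reads were counted per mitochondrial mRNA read in WT, 5.42 to 16.5 in dystrophic and 3.88 to 10.6 in hypertrophic EVs, all overlapping.

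The summed level of the mitochondrial mRNAs did not follow the order of the conditions seen for the rRNAs. It ran from 8573 to 22265 CPM in WT, from 6223 to 18059 in dystrophic and from 8308 to 28767 in hypertrophic EVs, and all 3 ranges overlapped. Of the 13 mRNAs, 7 had enough reads to enter the edgeR fit, and 0 passed an adjusted p of 0.05 in dystrophic against WT, hypertrophic against WT or hypertrophic against dystrophic EVs. At an unadjusted p under 0.05 there were 0, 0 and 1, beside 139, 552 and 823 of all 6887 genes tested. At the adjusted threshold 1, 2 and 1 of all genes passed, against WT the rRNAs alone. DESeq2 also called 0 of these mRNAs in each, beside 933, 1031 and 243 of all genes. Nothing particular to the mRNAs is read from these counts. The 1 mRNA at an unadjusted p under 0.05 was mt-Co1, with a log2 change of 1.23 in hypertrophic against dystrophic EVs (SE 0.53, edgeR adjusted p = 0.191). mt-Nd1 changed by -1.60 (SE 0.97) in dystrophic and by -0.43 (SE 0.99) in hypertrophic against WT, and neither passed (edgeR adjusted p = 0.433 and 0.990). The median log2 change of the 7 was -0.51 in dystrophic and -0.16 in hypertrophic against WT, beside 1.38 and 0.66 over all genes, and 1.17 in hypertrophic against dystrophic EVs, beside -0.52.

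Across the 12 dystrophic and hypertrophic libraries, mt-Rnr1 and mt-Rnr2 levels on the log2 CPM scale rose and fell together. Pearson's r was 0.959 (permutation p = 4.00e-05, adjusted p = 0.000320 over 8 relations) and Spearman's rho was 0.937 (permutation p = 6.00e-05, adjusted p = 0.000480). Both levels share a library total, for which the test makes no allowance. It held without dystrophic replicate 2 and hypertrophic replicate 1, the 2 libraries farthest from the median (r = 0.937, permutation p = 0.000320). Within the conditions r was 0.973 in dystrophic (exact permutation p = 0.00278) and 0.974 in hypertrophic EVs (exact permutation p = 0.00556), and within the title series it was 0.966 in each.

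The count ratio of the rRNAs was also steadier than any ratio with or between the mitochondrial mRNAs read in every library. Its SD across the 12 libraries was 0.20 on the log2 scale, while the 20 other pairs of these 7 genes ranged from 0.52, for mt-Rnr2 to mt-Cytb, to 2.59. Over all 15 libraries the ratio of the rRNAs spanned 1.56-fold and the others at least 4.74-fold. The mRNAs rested on fewer reads, and the part of depth in this contrast was not tested.

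Summed rRNA and summed mitochondrial mRNA levels were related by rank but not by Pearson's r after adjustment over the 8 relations. Spearman's rho was 0.720 (permutation p = 0.0106, adjusted p = 0.0423) and Pearson's r was 0.603 (permutation p = 0.0352, adjusted p = 0.141). Leaving out hypertrophic replicates 2 and 6, which had the highest mRNA levels, gave r = 0.576 (permutation p = 0.0834). By condition, r was 0.491 in dystrophic (exact permutation p = 0.308) and 0.784 in hypertrophic EVs (exact permutation p = 0.0556). In the lower and higher title series it was 0.854 (exact permutation p = 0.00278) and 0.477 (exact permutation p = 0.358).

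The summed rRNA level showed no relation past the threshold with hemoglobin reads (r = 0.248, permutation p = 0.438), platelet markers (r = 0.228, p = 0.472 by permutation), log10 depth (r = -0.19, permutation p = 0.554) or the number of genes detected (r = -0.23, permutation p = 0.464). Spearman's rho for these was 0.147, 0.238, -0.14 and -0.34, with permutation p from 0.280 to 0.664. Without the 2 libraries farthest from the median of the other measure, the coefficient with the summed rRNAs turned sign for hemoglobin (-0.44), platelet markers (-0.0075) and log10 depth (0.187), and was -0.07 for genes detected. Neither was the log2 ratio of the rRNAs related to log10 depth (r = -0.18, permutation p = 0.570; rho = 0.0420, permutation p = 0.900) or to genes detected (r = -0.42, permutation p = 0.171; rho = -0.40, permutation p = 0.202). Without the farthest 2 libraries r turned to 0.427 with depth and was -0.34 with genes detected. Adjusted p-values of these 6 relations were at least 0.455.

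A further 167 genes had a read in every library. The log2 CPM of mt-Rnr1 had an SD of 0.55 across the 12 dystrophic and hypertrophic libraries, rank 9 from the lowest of 169, and that of mt-Rnr2 had 0.65, rank 25, beside a median of 0.99. In the 3 WT libraries the SDs were 0.19 (rank 14) and 0.05 (rank 3), beside a median of 0.88. The WT values entered the choice of the rRNAs and WT replicate 1 has 27227 reads, so nothing is read from the WT ranks. Genes with many reads have less counting error, and both rRNAs stand at the upper end of the levels.

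**Figure D4:**
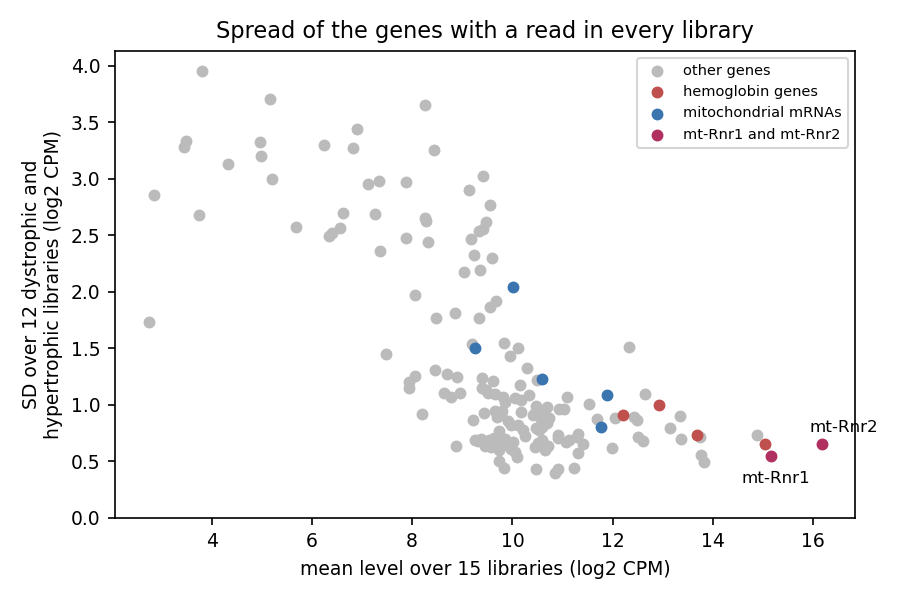
SD over the 12 dystrophic and hypertrophic libraries against the mean level over 15 libraries, both on the log2 CPM scale, for the 169 genes with a read in every library. mt-Rnr1 and mt-Rnr2, at an SD of 0.55 and 0.65, lie at the lower right, with Hbb-bs (SD 0.66) the nearest hemoglobin gene, while the 5 mitochondrial mRNAs lie further left and higher, from 0.81 for mt-Cytb to 2.04 for mt-Nd1.

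Likeness to the rRNAs was measured as Pearson's r of a gene's log2 CPM with that of the summed rRNAs over all 15 libraries, which share their totals, and is a description without a test. Among the 167 genes the highest were mt-Nd4, a complex I subunit (r = 0.645), Myl6, a non-muscle and smooth muscle myosin light chain (0.619), Eif4ebp1, a repressor of cap-dependent translation (0.591), and mt-Cytb (0.564). The lowest were the cytosolic translation elongation factors Eef2 (-0.58) and Eef1a1 (-0.56). This r includes the difference from WT by which the rRNAs were chosen. Over the 12 dystrophic and hypertrophic libraries alone the same 4 genes were highest, led by mt-Cytb (0.761), while Eef2 (-0.41) and Eef1a1 (-0.52) were no longer lowest and Dusp1 (-0.63), a MAP kinase phosphatase, and Vim (-0.59), the intermediate filament protein vimentin, were, both named after their values were seen. Over 15 libraries the median r was 0.0056, and 85 of the 167 were positive.

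Nuclear genes that make, modify or remove mitochondrial rRNA were too sparsely read to compare. Of 9 transcription genes, 4 were at 0 in every library, among them Polrmt, the mitochondrial RNA polymerase, and Tfam, which packages and transcribes the genome, was read in 8 libraries, more than any other. For rRNA modification, 7 of the 9 listed genes had a row, 3 of them at 0 throughout, and Tfb1m, the methyltransferase of the GGAA shown above, was 1 of these 3. Processing and turnover genes had 13 rows of 14 listed, and the most widely read, Hsd17b10 (a subunit of mitochondrial RNase P), Slirp (which binds mitochondrial mRNA with Lrpprc) and Rexo2 (an oligoribonuclease), were each read in 7 libraries. In each of the 3 comparisons, 2 transcription, 1 modification and 10 processing genes could be tested, and 0 passed an adjusted p of 0.05. At an unadjusted p under 0.05 there was 1 processing gene in hypertrophic against WT, Elac2 (which cuts the 3′ ends of tRNAs), and 2 in hypertrophic against dystrophic EVs, Elac2 and Mtpap (the mitochondrial poly(A) polymerase), each read in 3 libraries and named after their values were seen. Of all 6887 genes tested, 552 and 823 stood under that threshold in these comparisons, so nothing is read from Elac2 and Mtpap. Of 12 listed nuclear rRNA and related small RNA genes, 5 had a row and the most widely read, Rn7sk, had reads in 2 libraries, so the cytosolic counterpart of these rRNAs was not measured here.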

How the data were processed

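Per the labels, EV RNA was sequenced in 15 mouse libraries, aligned with TopHat to mm10 and counted with HTSeq, and DESeq is named too, without versions in the labels. The study's methods do give a TopHat version. The authors deposited raw counts of reads per gene symbol, not normalized. The 5 summary lines of each table were left out. CPM used all gene rows, and RPKM also the GENCODE M21 transcript length. Which annotation the authors counted on is not given in the sources used here.

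The RNAs and the gene lists were chosen with earlier results of these data known. Genes were named by a fixed rule, namely both rRNAs, the highest and lowest mRNA by reads per kilobase, mt-Nd1, 3 neighbouring tRNAs, the 4 highest and 2 lowest r, nuclear list genes read in at least 10 libraries, and genes called where a background is given. The most widely read list genes and others that stand at 0 were named after their values were seen. Levels were fitted over all genes with edgeR 4.0.16 (limma 3.58.1, R 4.3.3), using TMM, filterByExpr, a quasi-likelihood test on the 3 conditions and Benjamini-Hochberg adjustment at 0.05, with DESeq2 1.42.0 as an alternative, where missing adjusted p-values stayed missing. Ratios and shares used exact two-sided permutation tests, with 95% intervals of the difference by inverting the test, and correlations used 100000 permutations (exact within groups of 6). Other alternatives were other scalings and filters, fewer conditions, the title series as a term, the 6 libraries with crossed numbers exchanged or left out, and each library left out. Scripts were tested on simulated data. The simulation for edgeR had a smaller spread between libraries than these data and no library as shallow as the shallowest here. It therefore does not show how the fit performs at this spread and depth. A count of 0 allows 3 reads, for counting error only.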

Additional observations from a re-analysis of the deposited data

Results flagged for a closer look

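The mt-Rnr2 to mt-Rnr1 count ratio of dystrophic replicate 4, 2.32, stood apart from the other dystrophic libraries, of which the nearest was at 1.88. Its gap was 0.706 of the whole range of the group, above Dixon's critical value of 0.625 for 6 samples. Among the 10 groups of values tested it was the 1 that did so, where chance flags about 1 in 20. The same library had the highest hemoglobin level of all (152654 CPM) and the highest rRNA levels outside WT. It is also 1 of the 6 libraries whose numbers are crossed between title and counts. The part of either in its ratio was not tested.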

How the results depend on the processing

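For hypertrophic against dystrophic EVs, no alternative to the edgeR fit brought mt-Rnr1 or mt-Rnr2 past an adjusted p of 0.05, and the lowest adjusted p was 0.132. The log2 change of mt-Rnr1 turned to 0.066 with the crossed libraries exchanged. That of mt-Rnr2 turned to 0.070 in DESeq2, 0.090 without TMM and 0.10 with the crossed libraries exchanged. Leaving out each library gave -0.59 to -0.10 for mt-Rnr1 and -0.44 to 0.13 for mt-Rnr2, where the sign turned without dystrophic replicates 1 (0.05), 4 (0.13) or 5 (0.05) or hypertrophic replicates 1 (0.13) or 4 (0.08). The rRNA share of mitochondrial reads differed by 2.67 points, in the other direction, with the crossed libraries exchanged (exact permutation p = 0.303), and by -5.03 to -2.58 points without each library. The log2 mt-Rnr2 to mt-Rnr1 ratio differed by 0.07 to 0.25 under the alternatives on the log scale, by 0.258 as a plain ratio, and from 0.12 to 0.24 without each library. Against WT it ran from -0.041 to 0.14 in hypertrophic EVs without each library, turning below 0 without WT replicates 1 (-0.041) or 2 (-0.01) or hypertrophic replicates 2 (-0.0016) or 5 (-0.03), and was -0.023 with the libraries exchanged. In dystrophic EVs it ran from -0.22 to -0.03.

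The log2 ratios of mean CPM against WT kept their sign throughout. Without each library they ran from -1.05 to -0.75 (mt-Rnr1) and -1.26 to -0.85 (mt-Rnr2) in dystrophic, and from -1.13 to -0.85 and -1.08 to -0.75 in hypertrophic EVs. Called mitochondrial mRNAs stayed at 0 under every alternative run. Genes called in hypertrophic against WT, dystrophic against WT and hypertrophic against dystrophic EVs numbered 2, 1 and 1 in edgeR, 1031, 933 and 243 in DESeq2, and 0, 0 and 0 with no filter beyond 1 read, where 1120, 580 and 4382 had an unadjusted p under 0.05. In the main edgeR fit the genes called against WT were the rRNAs themselves, which that comparison picked. For dystrophic against WT there were 3 called genes without TMM, 2 with the libraries exchanged and 3 with only the 9 matching libraries. For hypertrophic against dystrophic EVs there were 0 with only these conditions, 0 with the libraries exchanged and 0 with the matching libraries. Without each library the counts were 1 to 3, 1 to 2 and 0 to 2. The cause of these shifts was not tested. The edgeR biological coefficient of variation was 3.04. No paired analysis was possible because the labels give no replicate numbers shared between conditions. WT holds 3 libraries, and 1 of them has 27227 reads.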
